A study of Rattus norvegicus with 36 samples.

Results

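Interleukin-24 and its relatives in the IL-10 family were followed in rat lung after exposure to crystalline silica. The 6 genes were Il24, Il19 and Il10, which encode secreted cytokines, and Il20ra, Il20rb and Il10ra, which encode receptor chains. They were found as the probes, other than control probes, whose gene name on the array was one of these symbols. This gave 6 of the 25597 gene names on the array and 10 of its 45598 probes, of which 5 genes entered the test across 23940 genes. Il19 did not pass the filter on dim probes. The set was selected on family membership, with the log2 fold changes between DQ-12 and vehicle rats already known, so the values in those contrasts are given as a description with no p-value.

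The rats were female Sprague Dawley animals, aged 13 weeks at instillation. They received either 10 mg/rat of DQ-12 (the High label), a crystalline silica used as a reference dust for lung fibrosis, suspended in saline, or the saline vehicle alone (the Control label), by a single instillation into the trachea under anaesthesia. The accessory lobe of the lung was taken 1, 30 or 180 days later (D1, D30 and D180), with 6 rats for each treatment and day and 1 array for each of the 36 rats. The DQ-12 had been ground again before use, which left traces of tungsten and cobalt from the grinding tools, and no other dose of it was given. The labelled tissue was checked against the markers of alveolar type 2 cells, the surfactant-producing cells of the alveolus. All 6 of those markers were well above background on every array, at a mean log2 signal of 15.8 to 16.4.

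Cytokines of the IL-10 family bind receptors built from a pair of chains and signal through JAK kinases to STAT3. IL-10 acts through IL-10RA and IL-10RB, mainly on macrophages and other leukocytes, and restrains their production of inflammatory cytokines. IL-19, IL-20 and IL-24 act through a receptor of IL-20RA and IL-20RB, and IL-20 and IL-24 also through one of IL-22RA1 and IL-20RB, mainly on epithelial cells, in which they switch on repair and antimicrobial genes. In the genome the genes for IL-10, IL-19, IL-20 and IL-24 lie side by side.

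A microarray value belongs to the stretch of transcript that the probe matches, so both Il24 probes are shown with their first 30 bases of 60. Both lie on the minus strand of chromosome 13 in the build named in the array header (RGSC v3.4, or rn4). The first, printed in 2 spots, was designed on the curated transcript NM_133311 at chr13:43831514-43831573, and the second on the predicted transcript variant XM_017598655 at chr13:43832042-43832101. Both are written 5′ to 3′ in lower case, with no part marked.
Il24, curated transcript: acttcctgtgagctggctcaccatgggggc
Il24, predicted variant: tccctttatgagaggccattccacaggtga

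Il24, Il20 and Il19 encode the 3 ligands of the IL-20 receptor, and their promoters are shown to set this cluster beside the values below. The sequences are the 250 bases before each start site from RefSeq (build GRCr8, minus strand), at chr13:44910761-44911010 for Il24, chr13:44936894-44937143 for Il20 and chr13:44958715-44958964 for Il19. The 4 members in the table were Il24, Il19, Il20rb and Il10ra. Capitals mark a match to TTCNNNGAA, the letters that STAT proteins prefer.
Il24: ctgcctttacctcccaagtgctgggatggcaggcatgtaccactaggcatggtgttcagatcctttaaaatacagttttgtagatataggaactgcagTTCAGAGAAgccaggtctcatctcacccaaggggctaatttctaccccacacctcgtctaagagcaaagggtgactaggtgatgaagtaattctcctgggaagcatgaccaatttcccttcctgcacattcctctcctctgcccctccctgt
Il20: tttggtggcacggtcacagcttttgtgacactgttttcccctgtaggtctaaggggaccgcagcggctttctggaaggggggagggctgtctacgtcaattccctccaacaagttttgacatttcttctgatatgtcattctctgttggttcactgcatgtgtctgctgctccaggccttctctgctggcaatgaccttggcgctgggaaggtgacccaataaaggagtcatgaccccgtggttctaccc
Il19: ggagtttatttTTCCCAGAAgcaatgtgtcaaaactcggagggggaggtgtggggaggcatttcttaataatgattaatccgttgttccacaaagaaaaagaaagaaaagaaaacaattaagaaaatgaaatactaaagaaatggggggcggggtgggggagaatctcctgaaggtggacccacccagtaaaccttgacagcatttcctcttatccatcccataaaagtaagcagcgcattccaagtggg

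On both strands, the Il24 promoter held the STAT letters once, as TTCAGAGAA, 152 to 144 bases before the start, and the Il19 promoter once, as TTCCCAGAA, 239 to 231 bases before it. The promoters of Il20, Il20rb and Il10ra held none. Of 33469 RefSeq promoters of the same length, 7.67% held this motif. The AP-1 letters TGANTCA were in 6.34% of them and were not found in the promoters of these 5 genes. A match is only a match of letters.

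Signals are log2 values after quantile normalization, and a gene was called a differentially expressed gene (DEG) when it differed by 2-fold or more with an adjusted p under 0.05 in limma. Over all genes tested, 736 were DEGs at D1 (484 of them higher after DQ-12), 252 at D30 (219 higher) and 869 at D180 (684 higher). With arrays scaled to their 75th percentile instead, 915 were DEGs at D1, of which only 337 were higher. The share of probes well above background was between 51.3% and 75.5% of an array, and the median correlation between rats of a group was between 0.973 and 0.981. Scan dates were unevenly spread over the groups: at D1 all 6 DQ-12 arrays were scanned on 1 date, with only 1 vehicle array. P-values here set a group difference against the spread between single rats, with no term for scan date or slide. At D1 they therefore do not separate DQ-12 from scan date. Arrays of 1 scan date correlated at 0.25 and arrays of 1 slide at 0.39, as limma estimates it over all genes. With the scan date as a random block, 405 genes were DEGs at D1, 192 at D30 and 909 at D180. With the slide as a random block they numbered 484, 243 and 839.

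Il24 was the member with the widest difference between exposed and vehicle rats. At D1 its log2 signal in vehicle rats was 4.07 at the lowest, 4.29 at the median and 4.64 at the highest, and in rats exposed to DQ-12 it was 7.41, 8.75 and 9.89. All 6 exposed rats lay above all 6 vehicle rats, and the groups did not overlap. The group means were 4.32 ± 0.24 (SD, n = 6) and 8.67 ± 1.11 (SD, n = 6), a log2 fold change (log2 FC) of 4.35 (SE 0.47), or 20.4-fold.

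At D30 the Il24 groups overlapped. Vehicle rats gave 3.40, 3.85 and 4.72 as the lowest, median and highest log2 signal, and DQ-12 rats 3.06, 4.66 and 5.52. Of the exposed rats, 3 lay above all vehicle rats and 1 lay below all of them. The log2 fold change was 0.57 (SE 0.47), from 3.97 ± 0.51 to 4.53 ± 0.88 (SD, n = 6 in each group). The probe was well above background in only 1 vehicle array and 4 DQ-12 arrays at this time.

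At D180 the groups were apart again. Vehicle rats gave 2.45, 4.17 and 4.96, and DQ-12 rats 5.04, 6.74 and 8.0. All 6 exposed rats lay above all vehicle rats, although the lowest exposed rat stood only just above the highest vehicle rat. Means were 4.02 ± 0.87 and 6.52 ± 1.08 (SD, n = 6 in each group), a log2 fold change of 2.50 (SE 0.47), or 5.67-fold.

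Ranked by its group means, Il24 was highest in DQ-12 rats at D1, then in DQ-12 rats at D180. Each of these stood apart from the next group by more than the larger SD of the pair (2.15 against 1.11, and 1.99 against 1.08). Below them came DQ-12 rats at D30 and then the vehicle rats at D1, D180 and D30, in which neighbouring means were 0.06 to 0.30 apart, within their SDs. The exposure effect at D30 minus that at D1 was −3.79 log2 units (SE 0.67), the effect at D180 minus that at D30 was 1.93, and the effect at D180 minus that at D1 was −1.85.

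**Figure D1:**
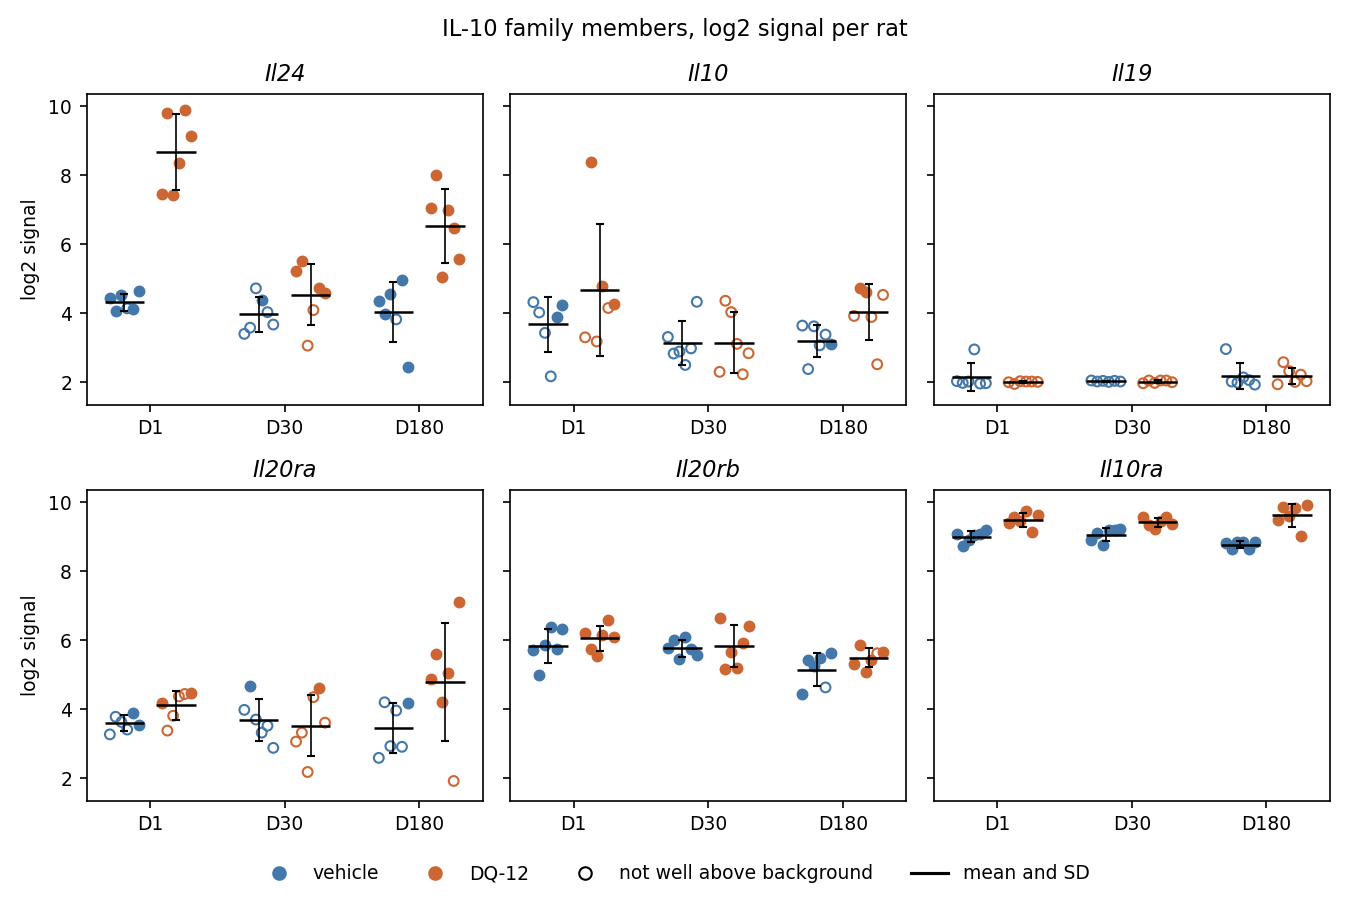
Log2 signal of each member (y axis) in each rat at D1, D30 and D180 (x axis), in vehicle and DQ-12 rats, with the mean and SD of 6 rats, and open points for arrays on which the probe was not well above background. The 6 exposed rats are above all vehicle rats for Il24 at D1 and D180, and all Il19 points are open.

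The second Il24 probe, on the predicted variant, was well above background on no array, so that the difference was measured on the curated transcript's probe alone. Within a scan date, the D1 difference was 4.15 (1 vehicle rat and 6 DQ-12 rats), close to the value over all rats. At D180 it was 2.46 in the scan with 3 rats of each group and 2.48 in the scan with 1 rat of each. At D30 it was 1.05 in one scan (4 vehicle rats and 1 DQ-12 rat) and −0.06 in the other (2 and 5). The size of the difference moved with the background correction, to 2.49 at D1 and 0.99 at D180 with the normexp method, and at D180 Il24 then fell just short of a 2-fold change. With the slide as a fixed block, the D180 log2 fold change of Il24 was 3.25. That fit rested on vehicle rat 4 and DQ-12 rat 1 alone, the only rats that shared a slide across the groups at D180.

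**Figure D2:**
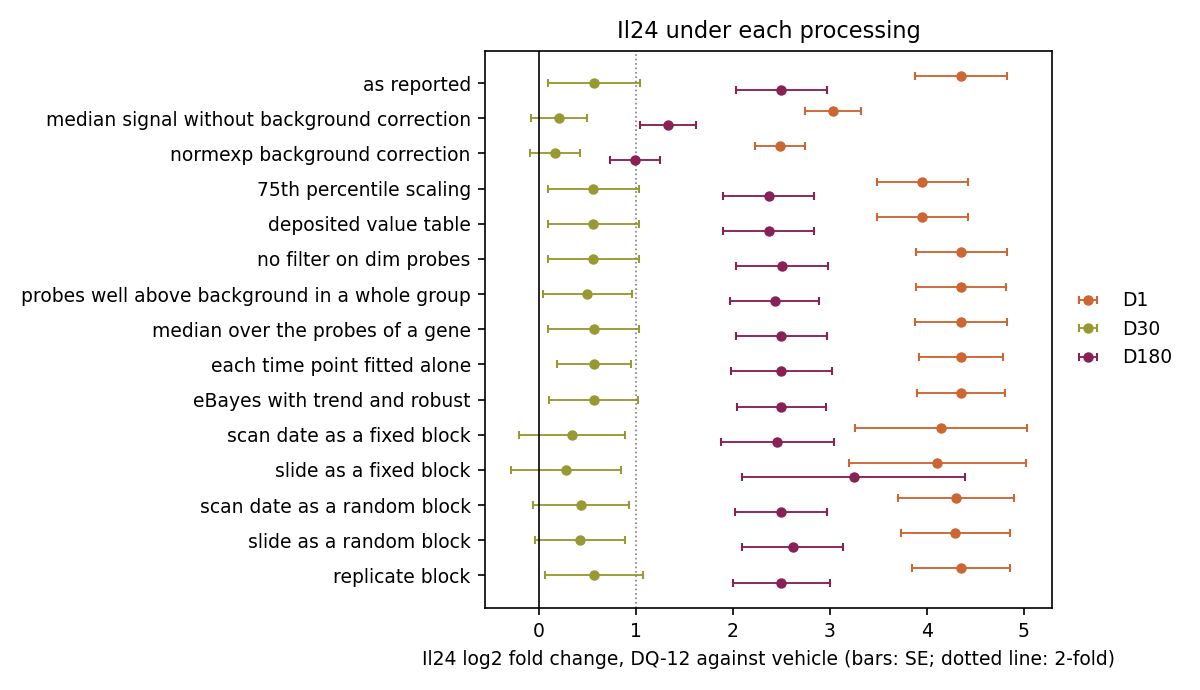
Log2 fold change of Il24 between DQ-12 and vehicle rats (x axis, bars are the SE) under each way of processing (y axis) at D1, D30 and D180, with a dotted line at a 2-fold change. The D1 values lie between 2.49 and 4.36 and the D180 values between 0.99 and 3.25, and the D30 values stay under the dotted line.

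Lung RNA is a mixture, in which fewer cells of a type and less RNA per cell cannot be told apart. Of the 7 neutrophil markers, 1 was a DEG at D1, 2 at D30 and 4 at D180, each of them higher in exposed rats. The D1 call was Csf3r, the receptor for G-CSF, at a log2 fold change of 1.41, while S100a8 and S100a9 were at 0.38 and 0.40 and were not called. Mpo, the myeloperoxidase gene, was well above background on no vehicle array and 2 DQ-12 arrays at D1. Only a bound could be given there, at least 2.51-fold higher, and it was not called. It was at −0.04 at D30 (1 vehicle and 2 DQ-12 arrays well above background) and −0.14 at D180 (2 of each). The mean log2 signal of that list was 6.64 to 7.05 in vehicle rats and 7.33 to 8.02 in DQ-12 rats at D1, 6.66 to 7.44 and 7.35 to 8.34 at D30, and 6.93 to 7.5 and 7.94 to 8.61 at D180. Elane, the neutrophil elastase gene, was well above background on no array at any time. No marker of basal and squamous epithelium, of T cells, of B cells, of NK cells or of ciliated cells was a DEG at any time. Markers of alveolar type 1 cells and of endothelial cells were not DEGs either, but all of them were below 0 at each time. The list medians at D1, D30 and D180 were −0.33, −0.27 and −0.48 for alveolar type 1 cells. For endothelial cells they were −0.29, −0.24 and −0.58. Lists of other cell types did hold DEGs. At D1 the fibroblast marker Lum was higher by 1.05 on the log2 scale and the secretory cell marker Cyp2f4 was at −1.08. At D30 the dendritic cell marker Clec9a was higher by 1.40. At D180 higher markers were Tpsab1 and Cma1 of mast cells, Clec9a and Cd83 of dendritic cells, Cd14 of monocytes, and Foxp3 and Il2ra of regulatory T cells, by 1.07 to 1.84. Other markers of these lists went the other way without being DEGs. Kit of mast cells was at −0.69, with 6 exposed rats below all vehicle rats, and F13a1 of monocytes at −0.62. Of 5 markers in each list, 4 were above 0 for mast cells, 4 for monocytes and 3 for dendritic cells. The part of cell numbers in the Il24 result was not tested.

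Il19, the neighbouring cytokine gene, had 1 probe (chr13:43878668-43878727, minus strand, rn4), which was well above background on none of the 36 arrays. Its log2 signal was 1.93 to 2.96 in all rats, and no fold change is given. Il10 was also dim. Its representative probe (NM_012854, chr13:43956439-43956498, plus strand, rn4) was well above background on 2 vehicle and 3 DQ-12 arrays at D1, on none at D30, and on 1 and 2 at D180.

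At D1, Il10 gave 2.17, 3.96 and 4.32 as the lowest, median and highest log2 signal in vehicle rats, and 3.18, 4.21 and 8.37 in DQ-12 rats. Only 2 exposed rats lay above all vehicle rats, and one of them, DQ-12 rat 2 with 8.37, stood far above the others. The log2 fold change of 1.00 (SE 0.58) fell to 0.26 without that rat. At D180 the values were 2.38, 3.25 and 3.64 in vehicle rats and 2.52, 4.23 and 4.73 in DQ-12 rats, of which 5 lay above all vehicle rats, and the log2 fold change was 0.83 (SE 0.58).

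The other Il10 probes did not add a clear value. The one on the predicted transcript (XM_008769426) was well above background on no array. The second probe on NM_012854 (chr13:43957707-43957766, rn4) was above it on no vehicle array and on 1 DQ-12 array at D180, where only a bound could be given, at least 1.15-fold higher. In the same lungs, 2 of the 4 markers of regulatory T cells, which are a known source of IL-10, were DEGs at D180, namely Foxp3 and Il2ra. None was a DEG at D1 or D30. The mean of that list at D180 was 3.88 to 4.61 in vehicle rats and 4.70 to 5.98 in DQ-12 rats, and Ctla4, another of its genes, was well above background on none of those arrays. The part of these cells in the Il10 values was not tested.

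Among the receptors, Il20ra, which pairs with Il20rb in the IL-20 receptor, had 1 probe (chr1:15009512-15009571, plus strand, rn4). At D1 its log2 signal was 3.27, 3.59 and 3.89 (lowest, median, highest) in vehicle rats and 3.38, 4.27 and 4.47 in DQ-12 rats, of which 4 lay above all vehicle rats. The D30 signals were 2.88, 3.61 and 4.66 against 2.18, 3.47 and 4.62, with no exposed rat above all vehicle rats. At D180 it was 2.59, 3.45 and 4.20 against 1.92, 4.96 and 7.11, with 5 exposed rats above all vehicle rats and 1 below all of them.

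The log2 fold changes of Il20ra were 0.52, −0.15 and 1.33 at the 3 times (SE 0.50). The exposed rat at 1.92 was DQ-12 rat 5 at D180, whose array had the lowest share of probes well above background, at 51.3%. Without it the D180 value was 1.91, and the members called at D180 numbered 2 in place of 1. Within scan dates the D180 difference was 1.73 with 3 rats of each group, and −2.28 in the scan that held 1 vehicle rat and DQ-12 rat 5. At D180 the probe was well above background in 1 vehicle and 5 DQ-12 arrays.

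Il20rb, the chain shared by the IL-20 receptor forms, was measured more clearly (chr8:105316059-105316118, minus strand, rn4), on all arrays but 1 of each group at D180. Its log2 signal at D1 was 5.00, 5.81 and 6.37 in vehicle rats and 5.53, 6.12 and 6.58 in DQ-12 rats. The D30 signals were 5.44, 5.75 and 6.10 against 5.17, 5.80 and 6.65, and at D180 it was 4.45, 5.35 and 5.63 against 5.07, 5.52 and 5.85. The groups overlapped at every time, with 1 or 2 exposed rats above all vehicle rats, and at D30 with 2 exposed rats below all of them as well. The log2 fold changes were 0.21, 0.07 and 0.34 (SE 0.25), each within the larger SD of its groups.

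Il10ra, the chain that binds IL-10, was well above background on all 36 arrays at its representative probe (XM_006242864, chr8:48209764-48209823, minus strand, rn4), and its rats lay close together. At D1 its log2 signal was 8.74, 9.06 and 9.19 in vehicle rats and 9.13, 9.52 and 9.73 in DQ-12 rats. The D30 signals were 8.76, 9.15 and 9.21 against 9.23, 9.40 and 9.58. At D180 it was 8.63, 8.82 and 8.84 against 9.02, 9.72 and 9.92. At D1, 5 exposed rats lay above all vehicle rats, and at D30 and D180 all 6 did.

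The Il10ra log2 fold changes were 0.48, 0.36 and 0.85 (SE 0.12), or 1.40-fold, 1.28-fold and 1.80-fold, so that the gene stayed under the 2-fold limit. Each of the 3 DQ-12 group means was above each vehicle group mean, and the gap between the lowest DQ-12 mean and the highest vehicle mean was 0.36, against a larger SD of 0.19. Within scan dates the difference was 0.60 at D1, 0.45 and 0.41 at D30, and 0.82 and 0.39 at D180. The second Il10ra probe (NM_057193, chr8:48211054-48211113, rn4) was well above background on 1 to 3 of the 6 arrays of a group. It gave 0.24, −0.46 and 0.44 (SE 0.39), so that the probes differed in direction at D30.

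Macrophages carry much of the IL-10 receptor in lung. Of the 7 macrophage markers none was a DEG at D1, and 2 were at D30 and at D180, Cd68 and Marco, each higher in exposed rats. Markers of the list that were not called included Csf1r, at −0.63 at D30, and Mrc1, at −0.46 at D1 and −0.31 at D180. The mean log2 signal of that list was 9.29 to 9.51 in vehicle rats and 9.41 to 9.56 in DQ-12 rats at D1, 8.84 to 9.06 and 9.30 to 10.02 at D30, and 9.21 to 9.79 and 9.95 to 10.43 at D180. Marco was well above background on no DQ-12 array at D1 and no vehicle array at D30. The part of macrophage numbers in the Il10ra values was not tested.

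**Figure D3:**
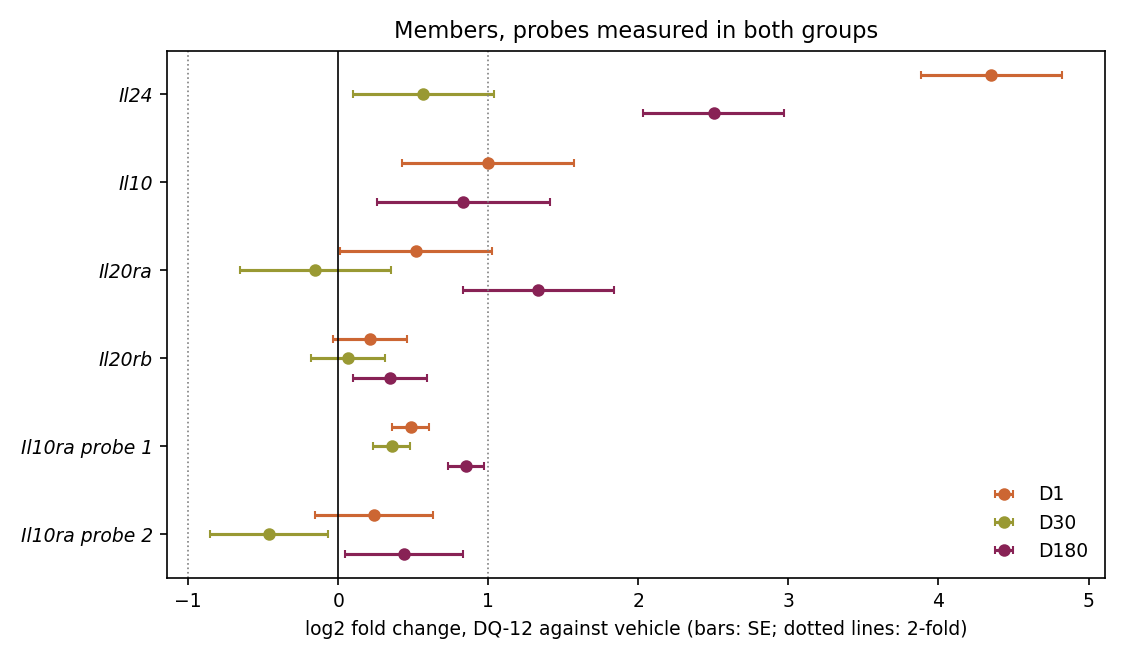
Log2 fold change between DQ-12 and vehicle rats (x axis, bars are the SE) for each probe of the members (y axis) at D1, D30 and D180, drawn where at least 1 array of each group was well above background. Il24 lies furthest to the right at D1 and D180, and the values of Il20rb and Il10ra stay left of the dotted line for a 2-fold change.

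Of the 5 members tested, 1 was a DEG at D1, 0 at D30 and 1 at D180, Il24 each time. Over all genes the share of DEGs was 3.07% at D1, 1.05% at D30 and 3.63% at D180. Groups without overlap, in either direction, were found for 11.2%, 2.36% and 7.26% of all genes. Since the members were chosen with these contrasts in view, nothing is read from the counts. The median log2 fold change over the 5 genes was 0.52, 0.07 and 0.85, beside −0.01, −0.02 and −0.03 over all genes tested.

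Vehicle rats of different days were also compared with each other. The genes were not chosen on this contrast, but the same vehicle arrays enter the DQ-12 contrasts that were known. The p-values below are therefore not independent of that choice. No member was a DEG between vehicle rats of different days in any of the 15 tests by limma, and 3 of those tests had an unadjusted p under 0.05. Of all genes, 2.74% were DEGs between D30 and D1, 1.74% between D180 and D1 and 2.7% between D180 and D30. The lowest adjusted p was that of Il20rb, whose log2 difference at D180 against D1 was −0.69 (SE 0.25, limma adjusted p = 0.0668). That of Il10ra at D180 against D30 was −0.30 (SE 0.12, limma adjusted p = 0.109). For Il24 the limma adjusted p was between 0.702 and 0.956 in the 3 contrasts. Days were scanned on different dates, so time and scan cannot be told apart.

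The other genes of the pathway were taken as 4 lists of 49 genes, of which 45 were tested. Their DEGs numbered 3 at D1, 6 at D30 and 11 at D180, each higher in exposed rats. As shares of 45 these stand beside 2.02%, 0.915% and 2.86% of all genes called higher. The lists were chosen with earlier results of these data known, so nothing is read from those shares and the p-values of list genes are not independent evidence. The median log2 fold change over the 45 genes was 0.19, 0.17 and 0.33.

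The other ligands and receptors of the family showed no DEG. The list holds the ligand genes Il20, Il22 and Ifnl3 and the receptor genes Il10rb, Il22ra1, Il22ra2 and Ifnlr1. Of these 7 genes, 5 had an array well above background in each group at each time. Their log2 fold changes ran from −0.08 to 0.75 at D1, from −0.74 to 0.48 at D30 and from −0.28 to 0.24 at D180. At an unadjusted p under 0.05 in limma, 0, 2 and 2 of the 7 genes passed.

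Of the 12 signalling genes, which span the JAK kinases, the STAT factors and their inhibitors, only Socs1 was a DEG, and only at D1. Socs1, which encodes an inhibitor of JAK kinases, went from 4.66 ± 0.65 to 5.83 ± 0.40 (SD, n = 6 in each group), a log2 fold change of 1.18 (SE 0.39, limma adjusted p = 0.035). Of the exposed rats 3 lay above all vehicle rats. Within the scan date that held both groups, where vehicle rat 3 was the only vehicle rat, the Socs1 difference was 0.18. The Socs1 call was lost in 14 of the alternative fits, which were 14 other ways of analysis and 36 fits with 1 rat left out. Its log2 fold change ran from 0.18 to 1.18 over the other ways of analysis, and from 1.01 to 1.37 with 1 rat left out. The other signalling genes, with Stat3 among them, were between −0.38 and 0.57 over the 3 times. At an unadjusted p under 0.05 in limma, 4, 4 and 7 of the 12 genes passed. Some differed by less than 2-fold without overlap of the groups, and are named after their values were seen. Jak2 and Cish were higher and Ptpn2 lower at D1, and Ptpn2 was higher and Pias3 lower at D180. Of all genes, 11.2% had no overlap at D1 and 7.26% at D180.

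The list of 15 genes known to be raised by IL-10 in macrophages had 1 DEG at D1, 2 at D30 and 5 at D180. Fcgr2b, the inhibitory receptor for IgG, rose at all times, by 1.38 at D1, 1.39 at D30 and 2.26 at D180 on the log2 scale (SE 0.23, limma adjusted p = 6.27e-05, 0.00021 and 1e-08). Il1rn, which encodes the antagonist of the IL-1 receptor, rose by 1.13 at D30 and by 2.57 at D180, from 10.86 ± 0.30 to 13.43 ± 0.28 (SD, n = 6 in each group, limma adjusted p = 2.85e-13). At D1 its log2 fold change was 0.98, below the limit. All 6 exposed rats were above all vehicle rats in each of these calls, which gives an exact permutation p of 0.00216 (2-sided), the smallest that 6 rats against 6 allow.

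At D180, Hmox1, the heme-degrading enzyme, rose by 1.55 (SE 0.19, limma adjusted p = 2.05e-07), and Tnfrsf1b, a TNF receptor, by 1.13 (SE 0.10, limma adjusted p = 9.42e-10). The fifth DEG, Bcl3, which encodes a nuclear IkB protein, was named after its values were seen, and rose by 1.09 (limma adjusted p = 6.17e-05). The other values of the list, none of them a DEG, were between −0.91 and 1.00, the highest for Hmox1 at D30. Cd163, a macrophage scavenger receptor gene named after its values were seen, was at −0.89 at D180 (limma adjusted p = 0.00191), with all 6 exposed rats below all vehicle rats but the difference under 2-fold. The median over the list was 0.19, 0.28 and 0.38. Of the 7 macrophage markers, Cd68 and Marco were DEGs at D30 and D180 and none was at D1, and the part of macrophage numbers in this list was not tested.

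The list of genes known to be raised in epithelia by ligands of the IL-20 or IL-22 receptors had 12 genes tested, with 1 DEG at D1, 4 at D30 and 6 at D180. Lcn2, which encodes an iron-withholding antimicrobial protein, rose by 4.61 at D1, from 9.46 ± 2.45 to 14.07 ± 2.44 (SD, n = 6 in each group, limma adjusted p = 0.0108), with 4 of 6 exposed rats above all vehicle rats. At D180 it rose by 4.69 (SE 1.27, limma adjusted p = 0.00802), with 3 of 6 above. Its spread was wide in both groups, and in one D180 scan with 1 rat of each group the exposed rat was lower, by −1.75. With the scan date as a block the Lcn2 log2 fold change was 5.83 at D1, with vehicle rat 3 as the only vehicle rat compared. At D180 it was 2.90 in that fit and was not called (limma adjusted p = 0.244).

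Cxcl6, a neutrophil-attracting chemokine gene listed under its older symbol Cxcl5, rose by 2.84 at D30 and 3.48 at D180 (SE 0.60, limma adjusted p = 0.00384 and 6.71e-05). It was well above background in 1 vehicle array and 5 DQ-12 arrays at each of these times. S100a9, a partner in calprotectin, rose by 1.93 at D30 and by 2.57 at D180 (SE 0.25, limma adjusted p = 4.84e-06 and 4.88e-09), with all 6 exposed rats above all vehicle rats. At D30, Cxcl1, another neutrophil attractant, rose by 1.17 and S100a8, the partner of S100a9, by 1.1 (limma adjusted p = 0.00757 and 0.00604). At D1 Cxcl1 was at −0.76 and Ccl20, a chemokine gene named after its values were seen, at −0.73 (limma adjusted p = 0.0463 and 0.0394), both lower by less than 2-fold and so not DEGs, with 4 and 6 of 6 exposed rats below all vehicle rats.

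Reg3b, an antimicrobial lectin gene, rose by 3.13 at D180 (SE 0.55, limma adjusted p = 7.46e-05), well above background on 1 vehicle array and 5 DQ-12 arrays. The other 2 DEGs at D180, named after their values were seen, were S100a8, which rose by 1.56, and Reg3g, a lectin related to Reg3b, which was near both limits at 1.04 (limma adjusted p = 0.0438) and was well above background on 1 vehicle array and 4 DQ-12 arrays. The Reg3g call was lost in 14 of the alternative fits, which were 13 other ways of analysis and 36 fits with 1 rat left out. Its log2 fold change ran from 0.24 to 2.94 over the 13, and from 0.83 to 1.23 over the 36. S100a8 and S100a9 are also on the neutrophil list, of which 1, 2 and 4 of 7 genes were DEGs at D1, D30 and D180. No DEG of this list was lower in exposed rats, and Krt17 and Pigr, an epithelial keratin and the receptor that carries IgA, named after their values were seen, were not DEGs at any time.

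**Figure D4:**
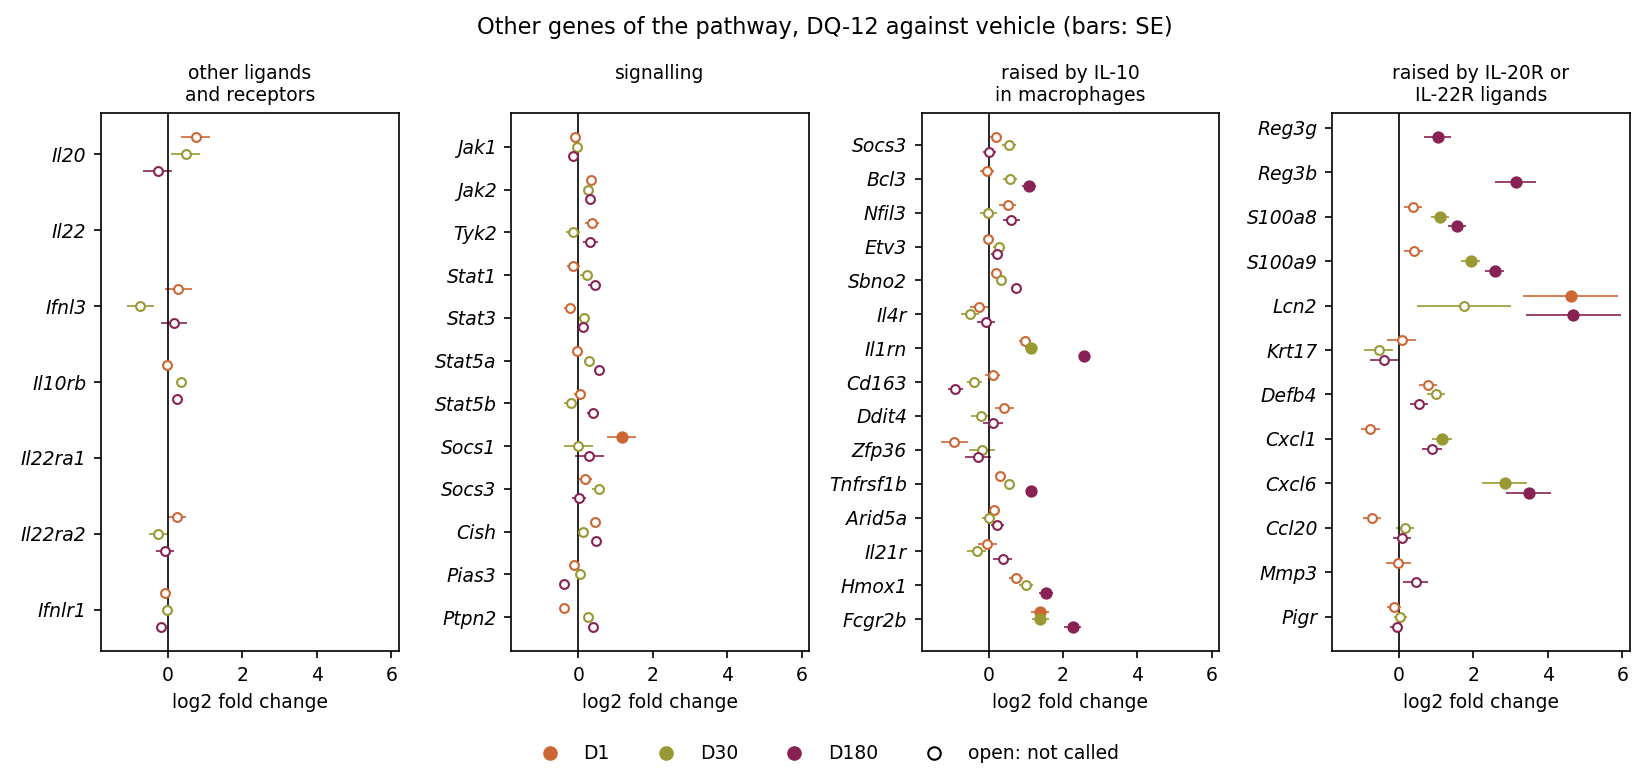
Log2 fold change between DQ-12 and vehicle rats (x axis, bars are the SE) of the other pathway genes (y axis) in 4 lists at D1, D30 and D180, with filled points for DEGs, drawn where at least 1 array of each group was well above background. Filled points lie in the lists of IL-10-raised and epithelial genes, and in the signalling list Socs1 at D1 alone is filled.

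The pathway genes were also fitted with the scan date or the slide as a fixed block. With the scan date as the block, 6 of them passed both limits at D30, as in the main fit. At D180, 10 passed in place of 11. With the slide as the block, 5 passed at D30. At D1 both fits set DQ-12 rats against vehicle rat 3 alone, so no count is given. The slide fit at D180 compared only vehicle rat 4 and DQ-12 rat 1, and its count is left out too. At D1 the log2 fold changes with the scan date as a block were 1.36 for Fcgr2b, 5.83 for Lcn2 and 0.18 for Socs1.

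The exposure effect differed between days for some pathway genes. Of 45 genes, 2 differed between D30 and D1, 1 between D180 and D30 and 6 between D180 and D1, at a difference of at least 2-fold and an adjusted p under 0.05. Over all genes these shares were 0.944%, 0.138% and 1.55%. As the lists were chosen with earlier results of these data known, nothing is read from these shares. S100a9 had a larger effect at D180 than at D1, by 2.17 log2 units. The effect on Il1rn was 1.45 larger at D180 than at D30 (limma adjusted p = 0.0023), and 1.59 larger than at D1. With the scan date or the slide as a fixed block, the D1 effect rested on vehicle rat 3 as the only vehicle rat. With the slide, the D180 effect rested on vehicle rat 4 and DQ-12 rat 1 alone. No count of these 9 calls is given for those fits.

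The genes whose signal followed Il24 most closely were outside the family. Over the 36 arrays, which include the group differences, the highest Pearson correlations among 23733 genes were those of LOC108351351 (0.885), Ppp1r14b (0.883), Vcpkmt (0.882), Top2a (0.876) and Sfn (0.874). Of these, Top2a had the widest fold changes, at 2.71, 0.53 and 1.51 in log2 units at D1, D30 and D180. The members themselves ranked lower, with 0.56 for Il10ra (rank 1028), 0.53 for Il10 (rank 1263), 0.28 for Il20ra and 0.26 for Il20rb.

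After each group's mean was subtracted, so that only differences between rats of the same group were left, the genes closest to Il24 were others. They were Rrp12 (0.757), Nhp2 (0.726), Foxq1 (0.681), Olr1455 (0.664) and Cox18 (0.646). For the members this correlation was 0.23 with Il10, 0.07 with Il20rb, 0.01 with Il10ra and −0.06 with Il20ra. The arrays share scans and groups, and no p is given for these values.

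Genes beside Il24 were looked at by position, within 500 kb of its start in RefSeq. Of 28 such genes, 18 were tested, 16 of them other than members. The DEGs were C4bpa at each time and C4bpb at D30 and D180, which gave 1, 2 and 2 of 16 genes beside 3.07%, 1.05% and 3.63% of all genes. C4bpa, which encodes the alpha chain of a complement inhibitor, rose by 1.53, 2.02 and 1.81 (SE 0.22, limma adjusted p = 4.93e-06, 1.41e-07 and 1.85e-07).

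C4bpb, which encodes the beta chain, rose by 1.38 at D30 and 1.43 at D180 (SE 0.28, limma adjusted p = 0.00237 and 0.000298), and its log2 fold change at D1 was 0.41. C4bpa is the ninth gene from Il24 in the direction of lower coordinates. Il20, the gene next to Il24 on the other side, had log2 fold changes of 0.75, 0.48 and −0.28 and was no DEG.

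**Figure D5:**
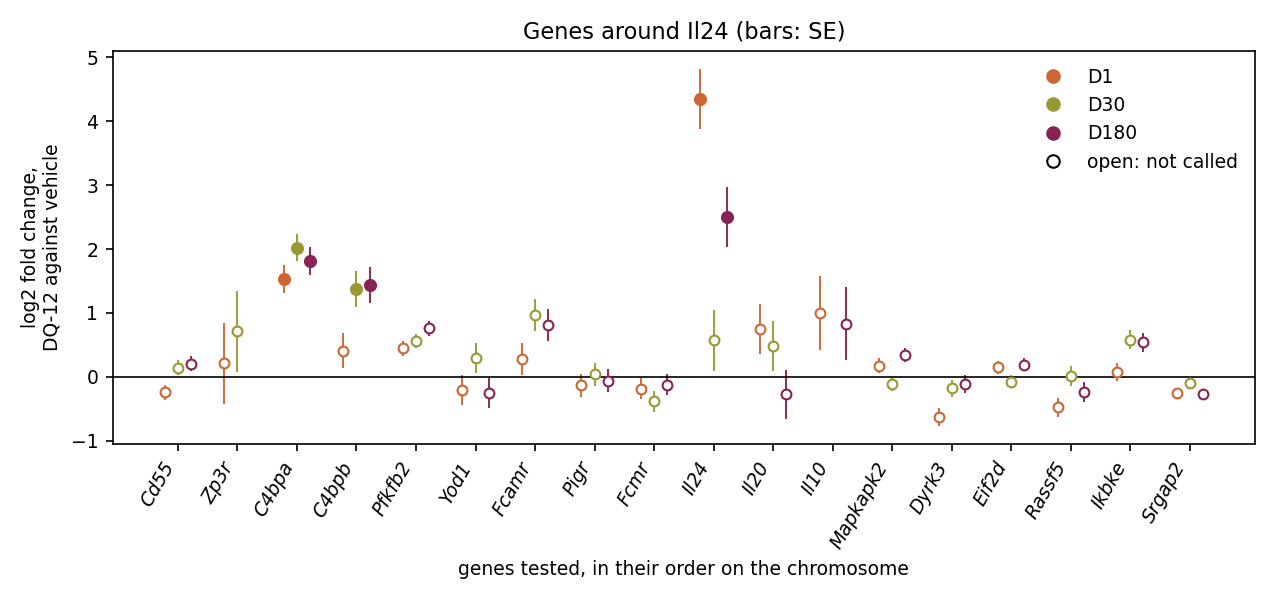
Log2 fold change between DQ-12 and vehicle rats (y axis, bars are the SE) of the tested genes around Il24, in their order on the chromosome (x axis), at D1, D30 and D180, with filled points for DEGs. Il24 stands at 4.35 at D1 and C4bpa at 1.53 to 2.02, and Il20 beside Il24 has only open points.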

How the data were processed

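RNA from the accessory lobe of 36 rats was labelled with Cy3 and hybridised by the authors, 1 array a rat. The deposited files hold spot intensity values from Agilent Feature Extraction 12.0.1.1, in which background had been subtracted (processed signal), and the deposited table of the series holds log2 values. These equalled the log2 processed signal minus each array's 75th percentile, centred on each probe's median (r = 0.99997, median difference 0.00177).

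Here outlier spots (232 to 596 an array) were left out and spots of a probe averaged. Probes above the 0.95 quantile of 308 negative control spots on at least 6 arrays were kept (42200 probes), quantile normalized between arrays, and the probe with the highest mean stood for its gene. The study's methods name a filter on quantiles, quantile normalization, a batch correction whose variable is not named, and limma. limma 3.58.1 (R 4.3.3) was fitted with 6 group means on 36 arrays, 2-sided, with Benjamini-Hochberg adjustment over 23940 genes in each contrast. Single pathway genes were also tested by an exact permutation test. Scripts were tested on simulated data.

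Groups were read from sample titles. Members and gene lists were chosen with earlier results of these data known. Ifnl1, Krt6a and Saa3 were not matched on the array, and Krt16 was not tested. Text names all members, every called gene of the ligand, receptor and signalling lists, up to 4 called genes of largest change in each other list and time, the 5 genes most like Il24 by each measure, and called neighbours. Alternatives covered background correction, scaling, the deposited values, the filter, the choice of probe, the fit, scan date and slide as blocks, the replicate block, the threshold and each rat left out. Sequence letters come from the array files and RefSeq. Precision is limited by the number of arrays, and 0 spots were saturated. Rats with the same replicate number in both groups of a day had deviations that correlated at −0.13 to 0.22, with 6 of 18 pairs over 0.1, so the numbers were not taken as pairs.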

Additional observations from a re-analysis of the deposited data

Results flagged for a closer look

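Of 108 groups of 6 rats looked at, over the members and the named pathway genes, 8 held 1 rat far from the others, where chance gives about 1 in 20 groups. Il10 in DQ-12 rats at D1 was 8.37 in rat 2, while the others were 3.18 to 4.78. In that rat Hmox1 was the highest of its group, at 12.01 against 11.17 to 11.47, and Bcl3 the lowest, at 10.7 against 11.31 to 11.6. Among vehicle rats at D180, rat 2 was the highest for Socs1 (8.04 against 4.62 to 5.02) and for Lcn2 (12.26 against 7.07 to 8.54), and rat 5 for Reg3b (5.39 against 1.85 to 1.97). Among vehicle rats at D30, rat 3 was the lowest for Socs1 (4.78 against 5.4 to 5.75) and for Lcn2 (7.06 against 10.34 to 11.97).

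The exposure effect of some pathway genes differed between days by the interaction test in limma. Against D1, the log2 effect at D180 differed by 1.13 for Bcl3, 1.59 for Il1rn, −1.0 for Cd163, 1.18 for S100a8, 2.17 for S100a9 and 1.65 for Cxcl1. Against D30, the effect at D180 differed by 1.45 for Il1rn. The effect at D30 against D1 differed by 1.54 for S100a9 and 1.93 for Cxcl1.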

How the results depend on the processing

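No result changed direction under the alternatives while called. Among the member values that were not called, Il10 at D1 went to −0.24 and Il10ra at D30 to −0.05 with the median over the probes of a gene. Il20rb at D180 went to −0.17 with the slide as a fixed block, a fit that compared only vehicle rat 4 and DQ-12 rat 1. Members called at D1 (1) numbered 2 with the adjusted p alone. At D180 (1) they numbered 0 with normexp background correction. They numbered 2 with 75th percentile scaling, the deposited table, the replicate block, a fold change of 1.5 or the adjusted p alone, and 1 to 2 when 1 rat was left out. With the slide as a fixed block the D180 comparison held only vehicle rat 4 and DQ-12 rat 1, so its count is not given. Il24 moved to 3.04 (D1) and 1.33 (D180) with the median signal and to 2.49 and 0.99 with normexp, and was 4.11 to 4.61 and 2.19 to 2.80 when 1 rat was left out.

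Other pathway genes called numbered 3, 6 and 11 at D1, D30 and D180. They numbered 8 at D1 with a fold change of 1.5, and 12, 10 and 19 with the adjusted p alone. With 1 rat left out they numbered 2 to 4, 5 to 8 and 9 to 12. Effects between days (9) numbered 7 to 10 with 1 rat left out. Counts from fixed blocks are left out where D1 held only vehicle rat 3, or D180 only vehicle rat 4 and DQ-12 rat 1. Marker calls (21) numbered 13 with normexp, 42 with a fold change of 1.5, 69 with the adjusted p alone and 20 to 23 with 1 rat left out. Calls beside Il24 (5) numbered 9 with a fold change of 1.5, 17 with the adjusted p alone and 5 to 6 with 1 rat left out. Members called over time in vehicle rats stayed at 0, and the fits with the scan date or slide as a fixed block could not be made for them, as days share no scan. The causes of these moves were not tested.

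The replicate numbers gave no sign of pairing, and the replicate block moved no other count by over 1.5 times. Dim signals limited Il19, Il10 and, outside the DQ-12 rats at D180, Il20ra.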
